A study of Homo sapiens with 4 samples.

Results

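The PAX genes are followed here through the H3K27me3 peak lists of HaCaT cells cultured with AKBA or with DMSO. Each of 8 genes (PAX1, PAX2, PAX3, PAX5, PAX6, PAX7, PAX8 and PAX9) was represented by a fixed hg19 window around it, and every peak of either list that overlapped the window was a member. The 8 windows span 953 kb and held 54 AKBA peaks and 54 DMSO peaks, out of 13155 and 8890 in the whole lists. HaCaT is an immortalised human keratinocyte line. The series has 4 samples, with 1 H3K27me3 library and 1 input DNA library from the AKBA medium and the same pair from the DMSO medium, after 12 hours. AKBA is the usual short name of a boswellic acid derivative of frankincense resin, DMSO is its solvent control, and no dose is stated. The input libraries have no values used here. Each condition has 1 library, so the differences below carry no test and no p-value. Sequencing depth is unknown, so a stretch outside a list is one that was not called, which is not the same as a stretch without the mark.

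PAX proteins are transcription factors that bind DNA through a paired domain and specify organs and cell lineages in the embryo. They fall into subfamilies of close relatives, namely PAX1 with PAX9, PAX2 with PAX5 and PAX8, PAX3 with PAX7, and PAX6 with a gene not analysed here, PAX4. H3K27me3 is written by Polycomb repressive complex PRC2 and typically covers the CpG-rich starts of such developmental regulators in cell types that keep them silent. RNA was not measured in this series, so whether any PAX gene was transcribed in these cells is not known from it.

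The start sequences of 4 genes are shown because the peaks gathered at gene starts, except at PAX8. They are RefSeq promoter entries of assembly GRCh38.p14, from 250 bases before to 50 bases after the annotated start, on the strand of the gene. The peaks are in hg19, so these coordinates cannot be laid on the peak coordinates. Capitals mark the dinucleotide CG, which reads the same on both strands.
PAX6 (chr11:31817912-31818211, minus strand, the first of 9 listed starts): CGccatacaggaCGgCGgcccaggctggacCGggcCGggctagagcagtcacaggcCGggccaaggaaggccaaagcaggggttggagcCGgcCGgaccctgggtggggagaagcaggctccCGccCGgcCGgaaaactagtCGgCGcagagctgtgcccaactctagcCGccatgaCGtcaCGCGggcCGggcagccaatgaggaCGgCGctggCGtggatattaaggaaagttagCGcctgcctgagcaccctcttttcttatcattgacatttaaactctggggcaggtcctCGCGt
PAX3 (chr2:222298949-222299248, minus strand): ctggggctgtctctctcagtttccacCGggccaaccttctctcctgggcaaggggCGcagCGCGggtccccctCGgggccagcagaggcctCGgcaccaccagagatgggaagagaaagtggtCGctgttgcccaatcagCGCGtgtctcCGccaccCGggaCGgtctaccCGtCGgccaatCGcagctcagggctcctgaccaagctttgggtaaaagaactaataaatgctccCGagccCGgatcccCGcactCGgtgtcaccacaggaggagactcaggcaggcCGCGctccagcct
PAX5 (chr9:37034219-37034518, minus strand): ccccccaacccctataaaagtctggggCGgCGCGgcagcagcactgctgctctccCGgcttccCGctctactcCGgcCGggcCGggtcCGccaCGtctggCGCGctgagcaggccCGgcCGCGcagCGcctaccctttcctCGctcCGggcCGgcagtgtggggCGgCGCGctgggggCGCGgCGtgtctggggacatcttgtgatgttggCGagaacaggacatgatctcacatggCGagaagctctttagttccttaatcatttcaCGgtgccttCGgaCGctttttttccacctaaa
PAX8 (chr2:113278872-113279171, minus strand): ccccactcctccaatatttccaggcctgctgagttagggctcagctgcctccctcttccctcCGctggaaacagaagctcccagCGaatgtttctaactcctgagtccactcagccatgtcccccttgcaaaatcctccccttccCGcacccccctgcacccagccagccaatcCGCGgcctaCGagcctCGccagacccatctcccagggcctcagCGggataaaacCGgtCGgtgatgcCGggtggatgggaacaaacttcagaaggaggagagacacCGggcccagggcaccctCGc
The CG dinucleotide occurred 24 times at the PAX6 start shown, the most upstream of its 9 listed starts, 21 times at PAX3, 30 times at PAX5 and 13 times at PAX8. Over all 35116 promoters of the table, 96.0% held at least 1 CG and the median was 14. As many as at PAX5 were found in 22.4% of them, and as many as at PAX8 in 51.7%. Entries matched 7 of the 8 genes, the other being PAX1. PAX7 had 21 CG, PAX9 had 19 and 12 at its 2 listed starts, and PAX2 had 14 and 19 at its 2. The 9 PAX6 starts had 5 to 32. Fewer CG than at PAX8 were found at 4 of the PAX6 starts and at 1 of the PAX9 starts. Both genes carried peaks, but whether these starts lay under them is not known. A link between the number of CG and the peaks was not tested.

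Peaks of both lists lay at 7 of the 8 genes, and AKBA peaks covered more bases than DMSO peaks at each of these 7. PAX8 had no peak in either list. Summed over the windows, 119 kb lay in AKBA peaks (12.5% of the window length) and 85.2 kb in DMSO peaks (8.94%), a ratio of 1.39. The same ratio over the whole lists was 1.94. Among all 6791 segments of 100 kb with a peak in either list, 78.5% had more AKBA than DMSO bases, so more AKBA bases in a PAX window is also what most marked segments showed. The number of peaks was 54 in each list, a ratio of 1.00 (exact 95% interval 0.673 to 1.49, for counting error alone). The whole lists gave 1.48. That value lies within the interval, so the peak numbers do not separate the windows from the whole lists. The interval is for peak numbers and does not apply to the ratio of bases. AKBA peaks were more numerous at 3 genes, DMSO peaks at 3, and PAX7 had 10 of each. The count of 7 genes with more AKBA bases was 6 under 3 of the alternatives, each time through PAX1 or PAX5.

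**Figure D1:**
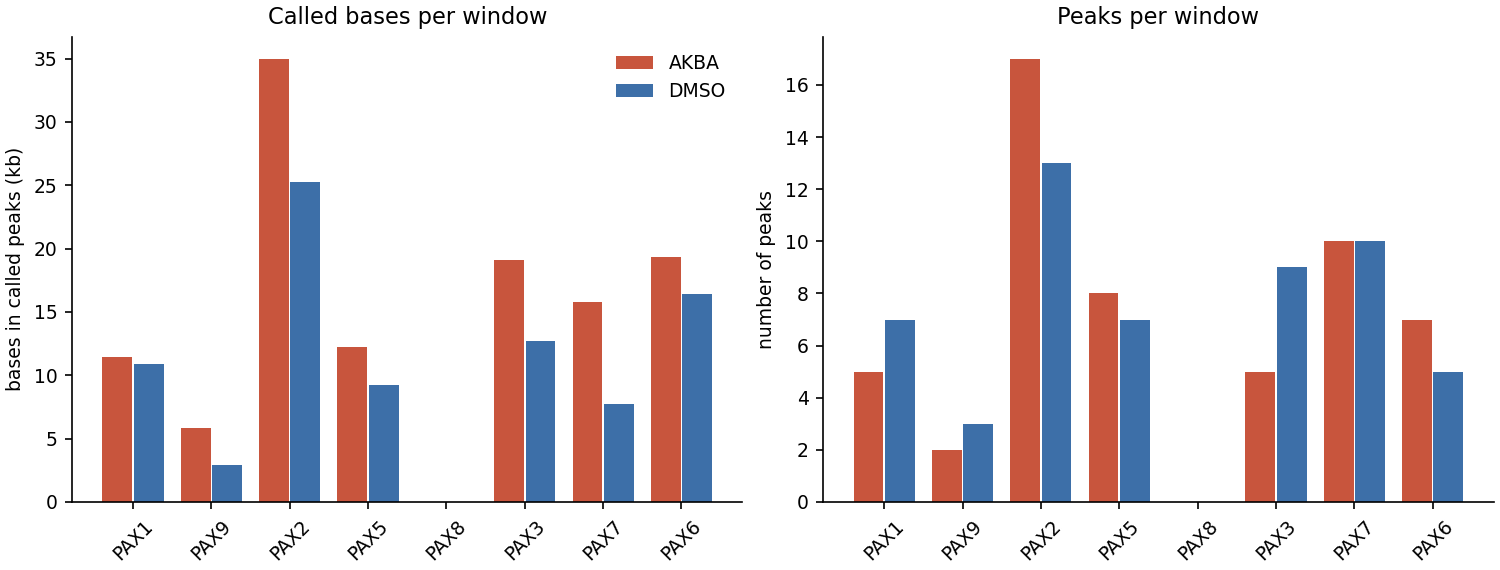
Bases in called H3K27me3 peaks (kb, left) and number of peaks (right) in each PAX window, with AKBA bars left of DMSO bars, 1 library each and no error bars. AKBA bars are higher in the left panel at all genes but PAX8, by 0.564 kb at PAX1 and by 9.71 kb at PAX2, while the right panel shows more DMSO peaks at PAX1, PAX9 and PAX3.

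The peaks in the windows were wide. Peaks of at least 2 kb numbered 20 of 54 in the AKBA list (37.0%, against 14.0% of the whole list) and 10 of 54 in the DMSO list (18.5%, against 9.43%). The median width was 1196.5 bp for AKBA peaks and 853 bp for DMSO peaks, where the whole lists had 742 and 552.5 bp. The floors of width and gap were higher for AKBA as well. The narrowest AKBA peak anywhere measured 214 bp and the narrowest DMSO peak 160 bp, and neighbouring peaks came no closer than 857 bp (AKBA) and 641 bp (DMSO). With DMSO peaks joined over gaps below 857 bp and lengthened by 27 bp at either end, the AKBA to DMSO ratio of median widths in the windows was 1.05, against 1.40 as deposited.

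Most peaks in the windows had a partner in the other list. Of the AKBA peaks, 30 of 54 overlapped a DMSO peak by at least 1 bp (55.6%, exact 95% interval 41.4 to 69.1%), against 32.2% of the whole list. Of the DMSO peaks, 39 of 54 overlapped an AKBA peak (72.2%, interval 58.4 to 83.5%), against 54.5%. The windows were chosen with marked genes in view, and wide peaks overlap more often, so these shares are given as a description with no test. Bases called in both lists came to 64.4 kb, which was 54.2% of the AKBA bases and 75.6% of the DMSO bases in the windows, against 33.2% and 64.2% over the whole lists. The 24 AKBA peaks without an overlap measured 625 bp at the median and 2124 bp at most. The 15 DMSO peaks without one measured 448 and 1011 bp. Of these, 9 AKBA and 8 DMSO peaks lay within 2 kb of a peak of the other list. The same share was not computed over the whole lists, so whether these counts are particular to the windows is not known. Under a reciprocal overlap of 50%, 9 peaks of each list were shared (16.7%), against 14.0% of the whole AKBA list and 20.8% of the whole DMSO list.

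**Figure D2:**
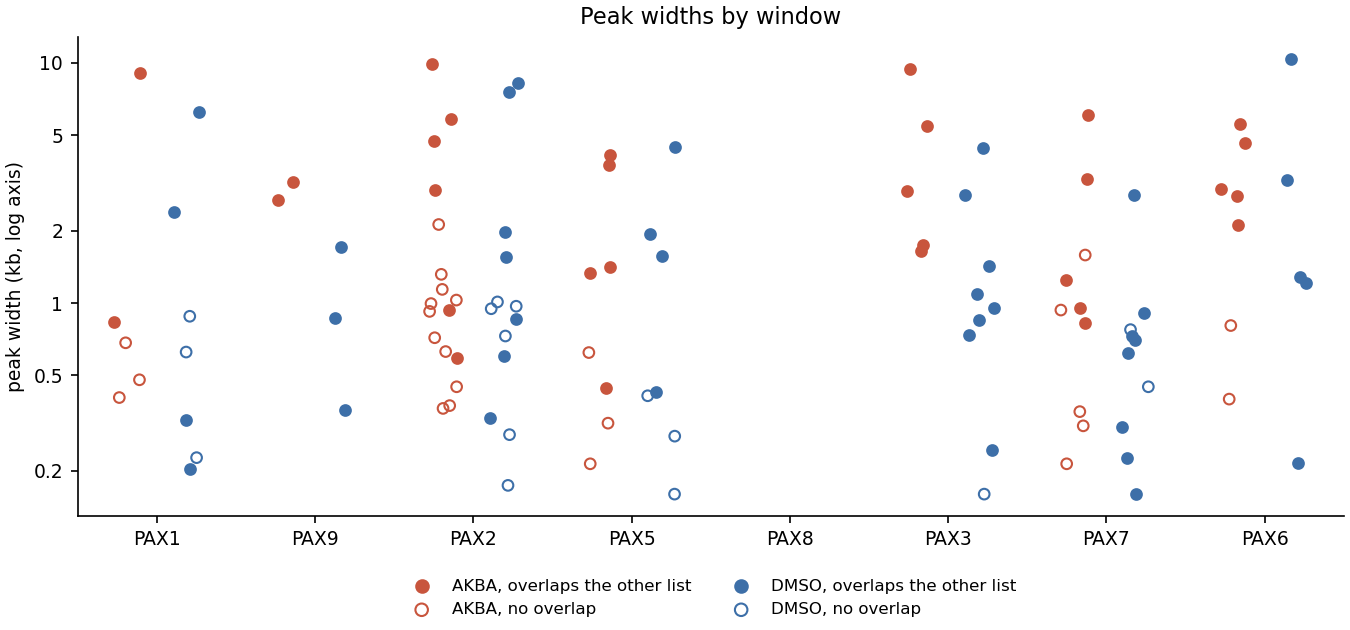
Width of each peak (kb, log axis) by PAX window, with AKBA peaks left of DMSO peaks. Filled points have a partner overlapping by at least 1 bp and open points have none, and the open points lie low, the widest being 2124 bp (AKBA) and 1011 bp (DMSO).

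Position relative to the genes was read from the windows. From what is generally known of hg19 genes (the files carry no annotation), each window reaches about 20 kb past both ends of its gene. The point 20 kb inside the 5′ edge is called the nominal start, and it is taken as good to about 1 kb for 1 start of each gene. PAX6 has 9 listed starts, and PAX2 and PAX9 have 2 each, several kb apart. Places given as near, upstream of or inside a start therefore refer to the nominal start alone. A peak of each list lay within 1 kb of the nominal start at 7 of the 8 genes. The zones of 10 kb on each side of the starts make up 16.8% of the window length. They held 72.3 kb of the AKBA bases (60.9%) and 61.7 kb of the DMSO bases (72.4%). The AKBA to DMSO ratio was 1.17 inside these zones and 1.98 outside them, where 46.4 kb were in AKBA peaks and 23.5 kb in DMSO peaks. The contrast depended on the size of the zone. With 5 kb on each side the ratios were 1.29 inside and 1.46 outside, and the zone was chosen after the data were seen. Inside the zones AKBA peaks covered more bases at 5 genes and DMSO peaks at 2, PAX2 and PAX6.

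**Figure D3:**
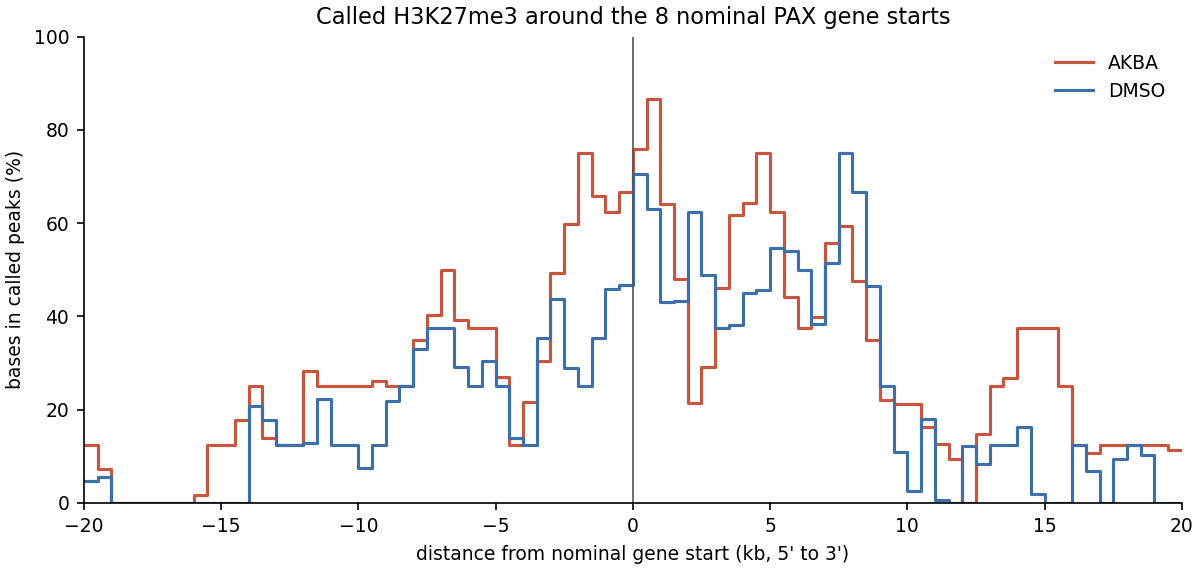
Share of bases in called H3K27me3 peaks (%) in steps of 0.5 kb around the nominal starts of all 8 PAX genes, PAX8 included, against distance from the start (kb). In the step from 0.5 to 1 kb inside the genes the AKBA line is at its highest, 86.6%, and the DMSO line at 63.0%. From 2 to 2.5 kb the AKBA line stands at 21.5% and the DMSO line at 62.5%. The steps are narrower than the precision of the nominal starts (about 1 kb), so the place of a single rise or dip is not resolved.

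PAX1 and PAX9 act in the pharyngeal pouches and the vertebral column, and PAX9 is also needed for tooth development. Together their windows held 17.3 kb in AKBA peaks and 13.8 kb in DMSO peaks. The values of each peak below carry the score that the authors deposited with it. Its scale is not stated, so scores serve only to rank a peak within its own list.

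At PAX1, the mark lay over the start in both lists, and the totals were close, with 11.5 kb of AKBA peaks and 10.9 kb of DMSO peaks. The widest AKBA peak (chr20:21682137-21691217, 9081 bp) ran from 3.9 kb before to 5.2 kb after the nominal start and had the highest AKBA score of the window, within the top 10.3% of its list. It overlapped 3 DMSO peaks, the widest of 6265 bp (chr20:21682691-21688955). Towards the 3′ end of the gene the order turned. The highest-scoring DMSO peak (chr20:21693442-21695826, 2385 bp, top 7.26% of its list) overlapped an AKBA peak of 831 bp that covered 34.8% of it. The remaining peaks were narrow and without a partner, the widest being an AKBA peak of 683 bp upstream (chr20:21678887-21679569) and a DMSO peak of 881 bp downstream (chr20:21711397-21712277). The ratio of bases, 1.05 as deposited, was 0.911 with DMSO peaks joined and padded and 0.992 in the window trimmed by 20 kb, so no order of the conditions held at PAX1.

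At PAX9 the same 2 places were marked in both lists, and the DMSO bases were all inside AKBA peaks. The AKBA total was 5.86 kb and the DMSO total 2.93 kb. The widest and highest-scoring AKBA peak (chr14:37124784-37127962, 3179 bp) ran from 2.2 kb before to 1.0 kb after the nominal start and overlapped 2 DMSO peaks separated by 740 bp. The one of 866 bp (chr14:37126927-37127792) had the highest DMSO score, in the top 6.10%. Upstream, an AKBA peak of 2677 bp overlapped the widest DMSO peak of the window (chr14:37115489-37117196, 1708 bp). The 20 kb of the gene itself were bare beyond the first 1.0 kb in both lists. The ratio of bases was 3.43 with peaks of at least 1 kb, and 1.21 in the window trimmed by 20 kb, and as deposited it rests on 5 peaks in all.

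PAX2, PAX5 and PAX8 differed widely among themselves. PAX2 acts in kidney, optic stalk and ear development, PAX5 commits lymphoid progenitors to the B cell lineage, and PAX8 specifies the thyroid follicular cell. AKBA peaks covered 35.0 kb at PAX2, 12.2 kb at PAX5 and none at PAX8, and DMSO peaks 25.3 kb, 9.26 kb and none.

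PAX2 had the most bases in peaks of the 8 genes in both lists. By share of the window it stood first in the AKBA list, at 28.0%, but its 20.2% in the DMSO list was below that of PAX6 (22.2%) and of PAX1 (21.4%). The widest AKBA peak of all the windows (chr10:102497104-102506972, 9869 bp) ran from 7.9 kb before to 2.0 kb after the nominal start. DMSO peaks of 7538 bp (chr10:102497183-102504720) and 8286 bp (chr10:102505425-102513710) flanked the start, only 704 bp apart, and covered 92.1% of it. The second of these, the widest and highest-scoring DMSO peak of the window, reached on to 8.7 kb inside the gene, where the AKBA list had a separate peak of 4725 bp. Around the start the lists were therefore nearly level, since 15.0 kb of AKBA bases and 15.8 kb of DMSO bases lay within 10 kb. The excess of AKBA bases lay elsewhere in the window, with 20.003 kb in AKBA peaks and 9.44 kb in DMSO peaks.

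A separate block lay over the 3′ end of PAX2. The AKBA peak there (chr10:102586095-102591917, 5823 bp) had the highest AKBA score of the window, in the top 8.32%, and overlapped 2 DMSO peaks of 855 and 1977 bp that were 888 bp apart. Between both ends, narrower peaks were strewn along the gene. In the whole window 11 of the 17 AKBA peaks and 6 of the 13 DMSO peaks had no partner. The other 6 AKBA and 7 DMSO peaks had one. Over the whole lists 32.2% of AKBA peaks and 54.5% of DMSO peaks had a partner, so the shares at PAX2 were near those of the lists. The widest AKBA peak without a partner (chr10:102489431-102491554, 2124 bp) lay 13.4 to 15.6 kb upstream, and the widest such DMSO peak (chr10:102584608-102585618, 1011 bp) missed an AKBA peak by 28 bp.

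At PAX5 the mark was confined to the 5′ part of a window of 242 kb, apart from 2 narrow AKBA peaks. The widest AKBA peak (chr9:37033854-37037976, 4123 bp) spanned the nominal start and overlapped DMSO peaks of 1570 and 425 bp, 1929 bp apart. Further in, the widest and highest-scoring DMSO peak (chr9:37026017-37030495, 4479 bp) was continuous where the AKBA list had 2 peaks, of 3768 bp and 1336 bp. The AKBA peak of 3768 bp (chr9:37024330-37028097) had the highest AKBA score of the window, in the top 4.56%. A DMSO peak of 1932 bp 48.1 kb inside the gene (chr9:36984974-36986905) likewise overlapped 2 AKBA peaks. The longest stretch without a peak was 97.1 kb for AKBA and 172 kb for DMSO. The difference comes from the AKBA peak of 622 bp (chr9:36886385-36887006), which lay 98.0 kb from the nearest DMSO peak. The other narrow AKBA peak, of 316 bp, lay past the gene. The widest DMSO peak without a partner measured 411 bp (chr9:37054276-37054686) and lay at the 5′ edge of the window. The ratio of 1.32 was 0.992 when peaks within 5 kb were merged.

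PAX8 had no peak in its window of 103 kb in either list. The nearest peak outside was 200.2 kb from the window for AKBA and 203 kb for DMSO. No other PAX window was empty, and the next lowest share of the window in peaks was that of PAX5, 5.05% for AKBA and 3.82% for DMSO.

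PAX3 and PAX7 mark neural crest and muscle progenitors, and PAX7 is the classical marker of satellite cells of adult muscle. Their windows held 34.9 kb in AKBA peaks and 20.4 kb in DMSO peaks, the highest ratio among the subfamilies at 1.71. It was 1.25 for PAX1 with PAX9, 1.37 for PAX2 with PAX5 and PAX8, and 1.18 for PAX6. With peaks merged within 5 kb it was 1.32 for PAX3 with PAX7 and 1.57 for PAX2 with PAX5 and PAX8, so the order did not hold there.

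At PAX3 the mark formed a block around and upstream of the start that was broken into more pieces in the DMSO list. AKBA peaks numbered 5 and covered 19.1 kb, and DMSO peaks numbered 9 and covered 12.7 kb. One AKBA peak of 5458 bp (chr2:223161762-223167219) spanned the nominal start and overlapped 4 DMSO peaks of at most 1088 bp, with gaps of 790 to 1239 bp. The widest and highest-scoring AKBA peak (chr2:223168764-223178210, 9447 bp) lay 4.8 to 14.2 kb upstream and overlapped DMSO peaks of 4430 bp (chr2:223168444-223172873) and 2812 bp, which were 2235 bp apart. The highest-scoring DMSO peak of all the windows was here (chr2:223161498-223162231, 734 bp, top 0.934% of the DMSO list), 1.8 to 2.5 kb inside the gene. Beyond 8.9 kb from the start the rest of PAX3 had no AKBA peak, whereas the DMSO list held 1 peak there of 160 bp (chr2:223103871-223104030), the narrowest width in that list and the only DMSO peak of the window without a partner.

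PAX7 had the highest ratio of bases, 2.05, from 15.8 kb in AKBA peaks and 7.71 kb in DMSO peaks. It was 4.32 with peaks of at least 1 kb, 1.81 with the same number of highest-scoring peaks from each list, 1.55 with DMSO peaks joined and padded, and 1.40 with peaks merged within 5 kb. Its first place was not kept throughout, since PAX9 at 1.997 stood above it with equal numbers of peaks and PAX2 at 1.89 with merging. The 5′ block reached from the start to 15.8 kb into the gene with AKBA and to 16.8 kb with DMSO. The widest AKBA peak (chr1:18959381-18965475, 6095 bp) overlapped 3 DMSO peaks, the widest of them 2829 bp (chr1:18959001-18961829) and also the widest of the window. An AKBA peak of 3297 bp (chr1:18969543-18972839) overlapped 2 more, including the highest-scoring one (chr1:18969013-18969714, 702 bp, top 11.1%). Much less of this AKBA peak was called in DMSO cells, 14.5% of its length.

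A second group of peaks lay 62.7 to 90.7 kb inside PAX7, with 5 peaks in the AKBA list and 1 of 160 bp in the DMSO list. It included the highest-scoring AKBA peak of the window (chr1:19043675-19044927, 1253 bp, top 4.02%), which overlapped that DMSO peak. Beside it stood the widest AKBA peak without a partner (chr1:19046158-19047742, 1585 bp). The widest DMSO peak without a partner (chr1:18973000-18973774, 775 bp) ended the 5′ block, 160 bp from an AKBA peak.

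PAX6, which directs eye, forebrain and pancreatic islet development, was, with PAX5, a gene whose widest peak was a DMSO peak. That peak (chr11:31830394-31840829, 10436 bp) was the widest of all the windows and ran from 0.8 kb before to 9.6 kb after the nominal start without a break. The AKBA list had 2 peaks inside it, of 5591 bp (chr11:31831575-31837165) and 2118 bp (chr11:31838048-31840165), 882 bp apart, which covered 73.9% of it. The narrower one had the highest AKBA score of all the windows, in the top 1.42% of the AKBA list. Within 10 kb of the start 13.2 kb were in AKBA peaks and 13.9 kb in DMSO peaks.

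Away from the nominal PAX6 start the AKBA peaks were the wider ones. Other listed starts of PAX6 lie further into the gene, so peaks there may still lie at a start. Further into the gene, AKBA peaks of 2799 and 2987 bp contained DMSO peaks of 1214 and 1288 bp whole. Upstream, an AKBA peak of 4635 bp (chr11:31844654-31849288) overlapped DMSO peaks of 3266 and 215 bp, the narrower of which had the highest DMSO score of the window (chr11:31845149-31845363, top 6.58%). Every DMSO peak of the window had an AKBA partner, and the widest of the 2 AKBA peaks without one measured 806 bp (chr11:31841370-31842175). The whole window held 19.3 kb in AKBA peaks and 16.4 kb in DMSO peaks, and 69.2% of the AKBA bases and 81.5% of the DMSO bases were in both lists.

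**Figure D4:**
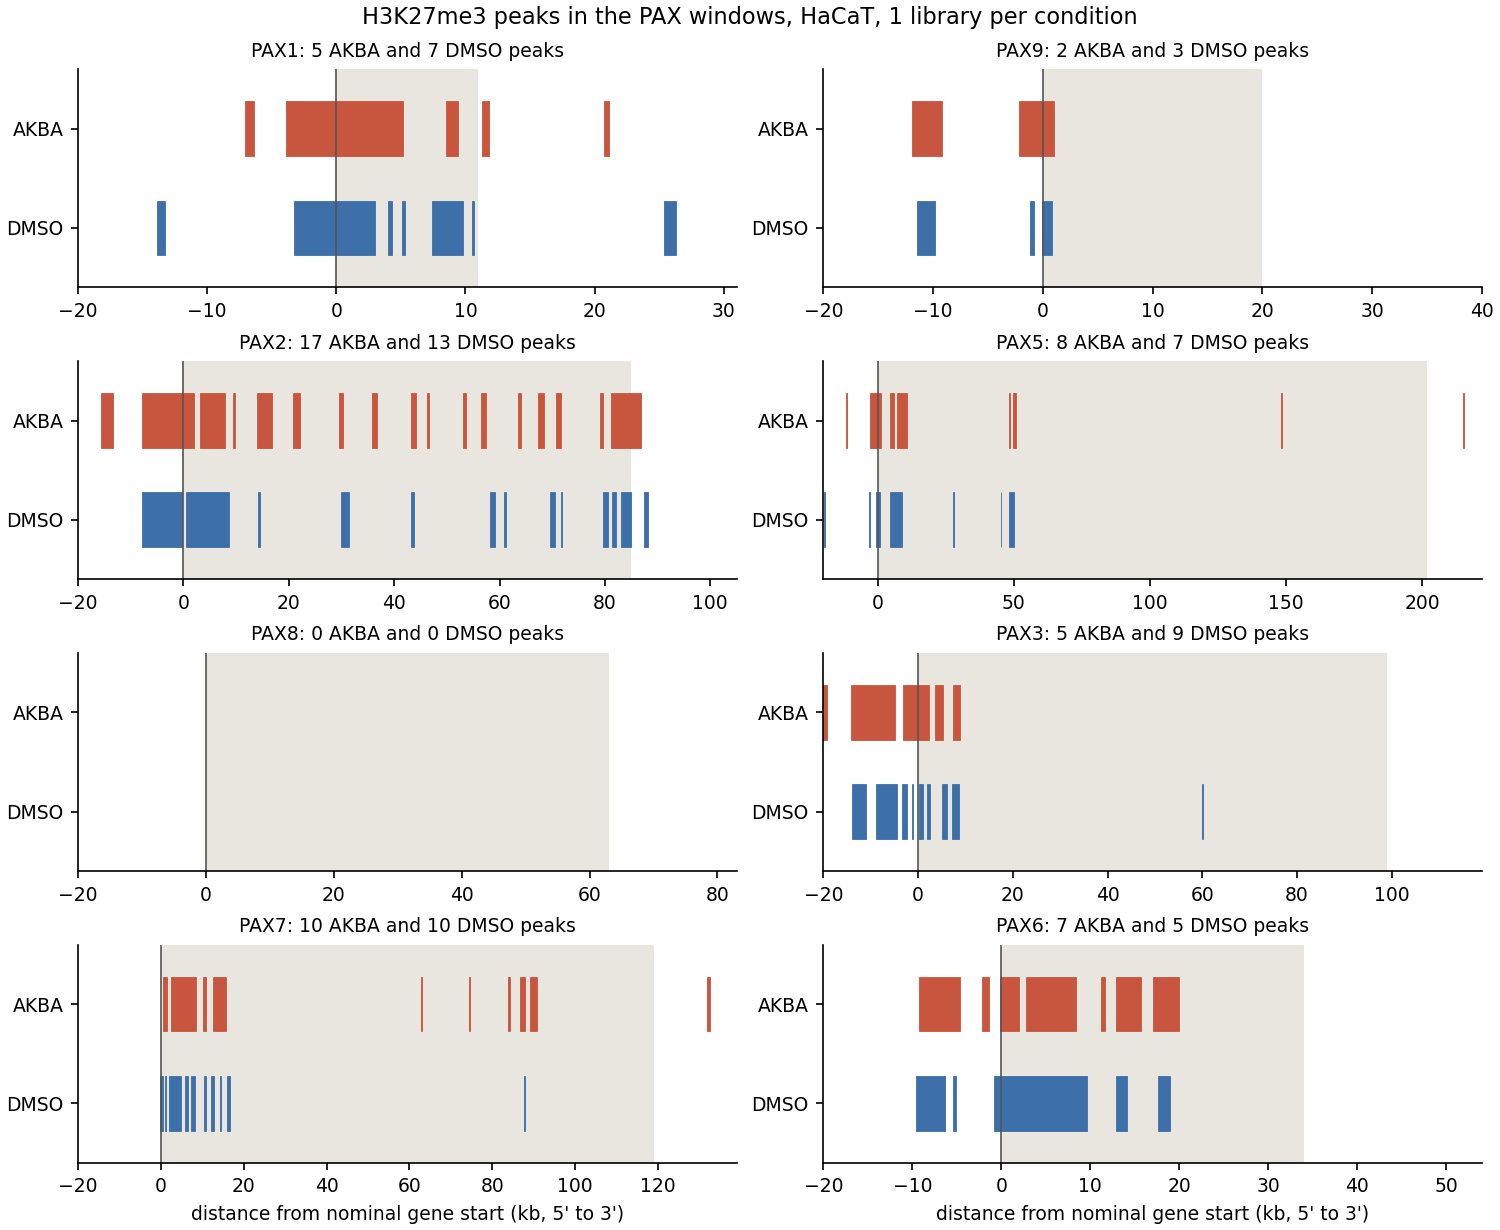
H3K27me3 peaks of the AKBA list (upper row) and the DMSO list (lower row) in each PAX window against distance from the nominal gene start (kb), with the nominal gene shaded and the axes of the panels on different scales. Peaks gather at the nominal starts of 7 genes and at the 3′ end of PAX2, the PAX8 panel is empty, and the DMSO block at PAX3 is in more pieces than the AKBA block.

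Single peaks that bridged several peaks of the other list occurred in both directions. An AKBA peak overlapped 2 or more DMSO peaks in 10 of 54 cases (18.5%, against 4.43% of the whole list), at each of the 7 marked genes. A DMSO peak overlapped 2 or more AKBA peaks in 4 of 54 cases (7.41%, against 0.945%), at PAX2, PAX5 and PAX6. Wide peaks can bridge more readily, and the bridging AKBA peaks measured at least 3179 bp. Peaks of at least 2 kb were also more common in the windows than in the whole lists (37.0% against 14.0% for AKBA, 18.5% against 9.43% for DMSO). These shares are therefore a description with no test. Of the 10 AKBA cases, 2 bridged only gaps narrower than 857 bp, the smallest gap that occurs in the AKBA list, 3 bridged gaps on both sides of it, and 5 only wider gaps. The widest gaps bridged were 2235 bp upstream of PAX3 and 1929 bp at the PAX5 start. All 4 DMSO cases bridged AKBA gaps of 882 to 1182 bp. No AKBA gap is narrower than 857 bp, so each had to exceed the smallest DMSO gap of 641 bp, and the same split says nothing here.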

How the data were processed

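H3K27me3 chromatin immunoprecipitation and sequencing was analysed in HaCaT cells. Per the submitters' processing notes the build was hg19 and the tools were BWA, STAR and MACS2, without versions. For the calling threshold, the use of the input and duplicates, no setting is given in the sources used here. Deposited files hold 1 peak list per library with 1 score per peak, on a scale that is not stated.

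Peaks were taken by overlap of at least 1 bp with fixed windows, and bases were clipped to the windows. Coordinates are 1-based. Python 3.11.15, numpy 2.4.6, pandas 2.3.3, scipy 1.17.1 and matplotlib 3.10.9 were used. Overlaps were tested on 235 moved copies of DMSO peaks, all called correctly, and the whole-list counts were the same with bedtools 2.31.1. Exact Clopper-Pearson 95% intervals cover counting error only and treat peaks as independent. Named in each window were the widest and highest-scoring peak of each list, peaks overlapping 2 or more, and the widest without a partner. Further peaks were named after their values were seen. Members, windows and rules were chosen with earlier results of these data known. Gene strand and names come from RefSeq tables of GRCh38.p14, and the strand of PAX1 from general knowledge.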

Additional observations from a re-analysis of the deposited data

How the results depend on the processing

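The ratio of AKBA to DMSO bases in the windows stayed between 1.26 and 1.58 and the ratio of peak numbers between 0.889 and 1.45 under the alternatives run, which were a score of at least 3, the same number of highest-scoring peaks from each list, peaks of at least 1 kb, merging within 5 kb, DMSO peaks joined and padded, trimmed or extended windows, and each marked window left out. Where an alternative changed the peak lists, the whole-list ratios of 1.94 (bases) and 1.48 (peak numbers) were not recomputed. Those values are therefore no comparison for such settings. Taking the same number of peaks makes the whole lists equal in number by design. Of 49 ratios of single genes, 46 were above 1. The exceptions were PAX1 at 0.911 (joined and padded) and 0.992 (trimmed), and PAX5 at 0.992 (merged). The ratio of median widths was 2.23 with a score of at least 3 and 1.05 to 1.82 otherwise. Shared peaks were 16.7% of each list at 50% reciprocal overlap. For DMSO peaks the share was 83.9% with a score of at least 3, 85.0% for peaks of at least 1 kb and 87.0% with partners allowed within 1 kb. Outside the start zones the ratio was 2.98 with a score of at least 3 and 1.46 to 2.66 otherwise, and inside them it was 1.06 to 1.29. The start zones, their alternatives and the leaving out of windows were chosen after seeing the data. At PAX7 and PAX9 the ratio of bases was 7.04 and 6.76 with a score of at least 3. That setting applies 1 score to both lists, although whether their scores share a scale is not stated. The cause of these changes was not tested. Every value rests on 1 library of unknown depth. No paired analysis was possible because each condition has 1 library.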
